A study of Homo sapiens with 17 samples.

Results

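The subunits of the RNA polymerases I, II and III (Pol I, Pol II and Pol III) were followed on 17 expression arrays. They were taken as every gene whose symbol starts with POLR1, POLR2 or POLR3 and a further letter, on a probe set that the platform annotation gives to 1 gene only. Each gene was read from its probe set with the highest mean signal. The rule found 31 probe sets of 30 genes, out of 18377 genes measured. POLR1H had 2 probe sets and every other gene 1. Of the 30 genes, 29 code for a subunit, and POLR1HASP is an antisense transcript that overlaps POLR1H. A further 6 probe sets that the annotation gives to several genes, POLR2J2, POLR2J3 and POLR2J4 among them, were left out.

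All arrays came from NKYS, an established human cell line of NK/T-cell lymphoma grown with recombinant human IL-2 and heat-inactivated serum. Every array, controls included, followed electroporation of an siRNA or a plasmid into this single line. JAK3 siRNA was given to 2 samples, set against 2 with a control siRNA for the JAK3 knockdown. EZH2 siRNA was given to 2 samples, each set against its own control siRNA sample, so that these form 2 pairs. Plasmids for full-length EZH2 (titled Y244D, Y244A or WT) were given to 6 samples and one for EZH2 without its SET domain to 1 sample, set against 2 samples with a vector control. JAK3 is the kinase that signals from the receptor of IL-2, and EZH2 is the methyltransferase of Polycomb repressive complex 2, whose activity lies in the SET domain. The titles number the plasmid arrays 1 and 2, called set 1 and set 2 here. The labels leave unsaid what a set was, how long after electroporation RNA was taken and whether replicate samples were grown apart. The p-values therefore cover no more than the spread among the arrays at hand, part or all of which may be technical.

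Pol I transcribes the large ribosomal RNA precursor in the nucleolus, Pol II transcribes messenger RNA, and Pol III transcribes tRNA, 5S ribosomal RNA and other short RNAs. Each is built around a pair of large catalytic subunits (POLR1A and POLR1B, POLR2A and POLR2B, POLR3A and POLR3B). POLR2E, POLR2F, POLR2H, POLR2K and POLR2L belong to all these enzymes, and POLR1C and POLR1D form an assembly platform shared by Pol I and Pol III. Pol III comes in alternative forms that carry either POLR3G or POLR3GL at the same position, in a module that opens the promoter. POLR3G is known for its high level in embryonic stem cells and many tumours, POLR3GL for its presence in most differentiated cells. Growing and dividing cells are known to make more of the ribosomal RNA and tRNA that Pol I and Pol III supply.

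The targeted genes were read first as a check of the labels. JAK3 had signals of 138 and 137 on the JAK3 siRNA arrays, against 322 and 326 on their controls (log2 change -1.24, SE 0.069, limma adjusted p = 5.7e-06). EZH2 had 501 and 489 on the EZH2 siRNA arrays, against 926 and 691 on their paired controls (log2 change -0.69, SE 0.088, limma adjusted p = 0.0275). EZH2 lay between 803 and 2221 on the 6 full-length plasmid arrays, against 259 and 349 on the vector arrays (log2 change 1.85, SE 0.347, limma adjusted p = 1). The groups did not overlap, but the transfected gene did not pass the test over all genes, whose fit had no term for the set. Of 9 markers of NK cells, 7 lay above the median of all probe sets, as did 2 of 6 T cell markers (CD4 and CD8A), 2 of 4 B cell markers, 3 of 5 monocyte markers and 4 of 6 markers of epithelial cells and fibroblasts. CD3D, CD3E and CD3G, which define T cells, did not. On 3 set 2 arrays the full-length construct in the title is not the one in the transfection field, so the full-length plasmids were taken as 1 group. The array titled EZH2 WT carries no number and was placed in set 2 because WT-1 is in set 1. No array repeated another. Precision throughout is set by how few arrays there are.

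After JAK3 siRNA, POLR3G was the only one of the 30 genes that passed the test: it fell 1.31-fold. None of the other subunits passed the test, and most of their values lay below 0. POLR3GL, the alternative to POLR3G, had a value in the opposite direction.

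POLR3G had signals of 210.5 and 221 on the JAK3 siRNA arrays, against 282 and 283 on the control siRNA arrays (216 ± 7.51 and 283 ± 0.575, SD, n = 2 each). Both siRNA arrays lay below both controls. The log2 change of POLR3G was -0.39 (SE 0.072, limma adjusted p = 0.0193 over 14466 genes). This is 1 of 30 genes called, where 1.38% of all genes tested were called, and 0.76% were called lower. As these are bulk samples, fewer cells of a type and less RNA per cell cannot be told apart. The call did not hold in every fit: with the replicate number as a block the limma adjusted p of POLR3G was 0.0602. With any 1 of the 4 arrays left out, which leaves a single array in 1 group, the log2 change of POLR3G ran from -0.43 to -0.36.

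**Figure D1:**
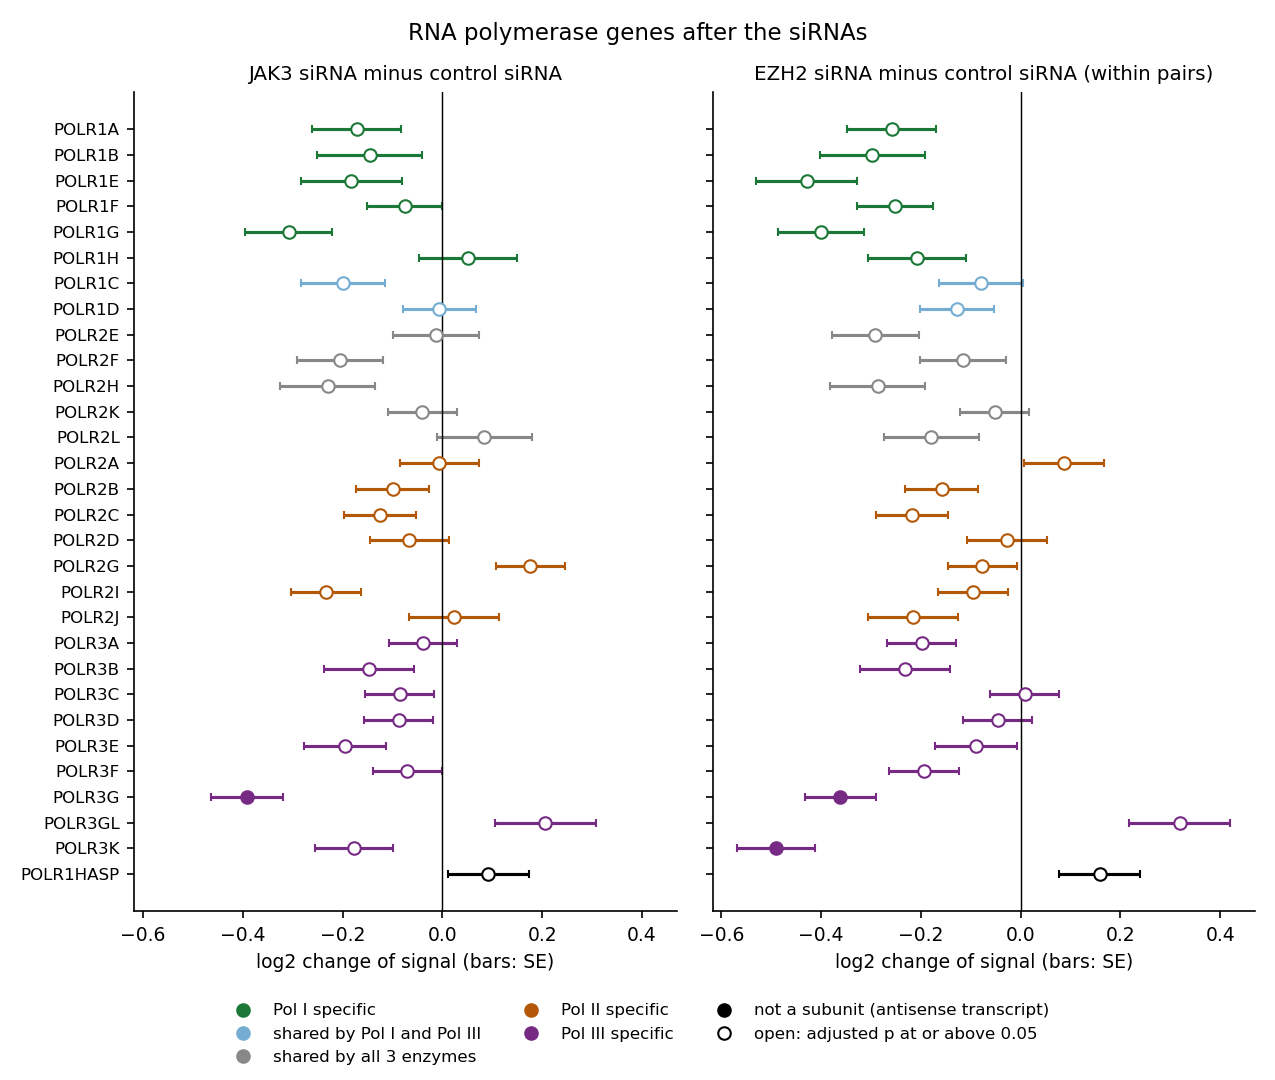
Log2 change of the signal of each of the 30 genes after JAK3 siRNA (left) and EZH2 siRNA (right), each minus its control siRNA, with bars for the SE and 1 colour per class of subunit. Filled points passed an adjusted p of 0.05. POLR3G is filled in both panels, POLR3K only in the EZH2 panel, and POLR3GL lies right of 0 in both.

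POLR1G, which with POLR1E forms the Pol I heterodimer related to the factor TFIIF, had 172 and 167 on the JAK3 siRNA arrays, against 199 and 221 on the controls (log2 change -0.31, SE 0.087, limma adjusted p = 0.137). POLR2I, a small Pol II subunit that aids cleavage of stalled transcripts, had 259 and 267 on the JAK3 siRNA arrays, against 314 and 304 on the controls (log2 change -0.23, SE 0.070, limma adjusted p = 0.156). The groups of arrays did not overlap for either gene, but neither change passed. POLR3GL had 138 and 136 on the JAK3 siRNA arrays, against 116 and 121 on the controls (log2 change 0.21, limma adjusted p = 0.446). Both of its siRNA arrays lay above both controls.

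By class, 0 of 6 Pol I subunits, 0 of 2 subunits shared by Pol I and Pol III, 0 of 7 Pol II subunits and 0 of 5 subunits shared by all 3 enzymes were called, against 1 of 9 Pol III subunits. The median log2 change was -0.16 for Pol I, -0.10 for the pair shared by Pol I and Pol III, -0.07 for Pol II, -0.04 for the subunits of all 3 enzymes and -0.09 for Pol III. Over all 29 subunits the median was -0.09 with 24 values below 0, where all genes tested had a median of -0.01 and 54.2% below 0. For 20 of the 29 subunits both JAK3 siRNA arrays lay below both controls, and for 2 (POLR2G and POLR3GL) above, where 27.1% of all genes lay below without overlap and 21.2% above. The NK cell markers KLRD1 (log2 change -0.47) and NCAM1 (-0.36) were called lower, 2 of 8 tested, while 5 of the 8 had values above 0. The summed signal of the 9 markers was 9389 to 9451 on the JAK3 siRNA arrays and 9172 to 9219 on their controls. The part of these markers in the values of the subunits was not tested.

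After EZH2 siRNA, POLR3G and POLR3K fell, by 1.28-fold and 1.40-fold. POLR3K is the small Pol III subunit that cleaves the nascent transcript and serves termination. All 6 Pol I subunits had values below 0, with POLR1E and POLR1G next to the threshold, but none of them passed. POLR3GL again had a value above 0 that did not pass.

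POLR3K had signals of 493 and 579.7 on EZH2 siRNA arrays 1 and 2, against 745 and 756 on their paired controls (536 ± 61.6 and 750.4 ± 8.3, SD, n = 2 each). Its groups were apart by more than the distance between arrays of a group, and the log2 change was -0.49 (SE 0.078, limma adjusted p = 0.0275). POLR3G had 234 and 215 on the EZH2 siRNA arrays, against 314 and 264 on their controls (log2 change -0.36, SE 0.072, limma adjusted p = 0.0444). Both were lower in both pairs, and they are 2 of 30 genes called, where 0.94% of all genes tested were called and 0.567% were called lower. Without the pair as a block neither passed (limma adjusted p = 0.0952 for POLR3G and 0.052 for POLR3K), nor when dim genes were kept in (0.12 and 0.118, 0 genes in all being called), and POLR3G did not pass after quantile normalization (0.0722) or with only the 4 arrays of the comparison (0.0862).

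**Figure D2:**
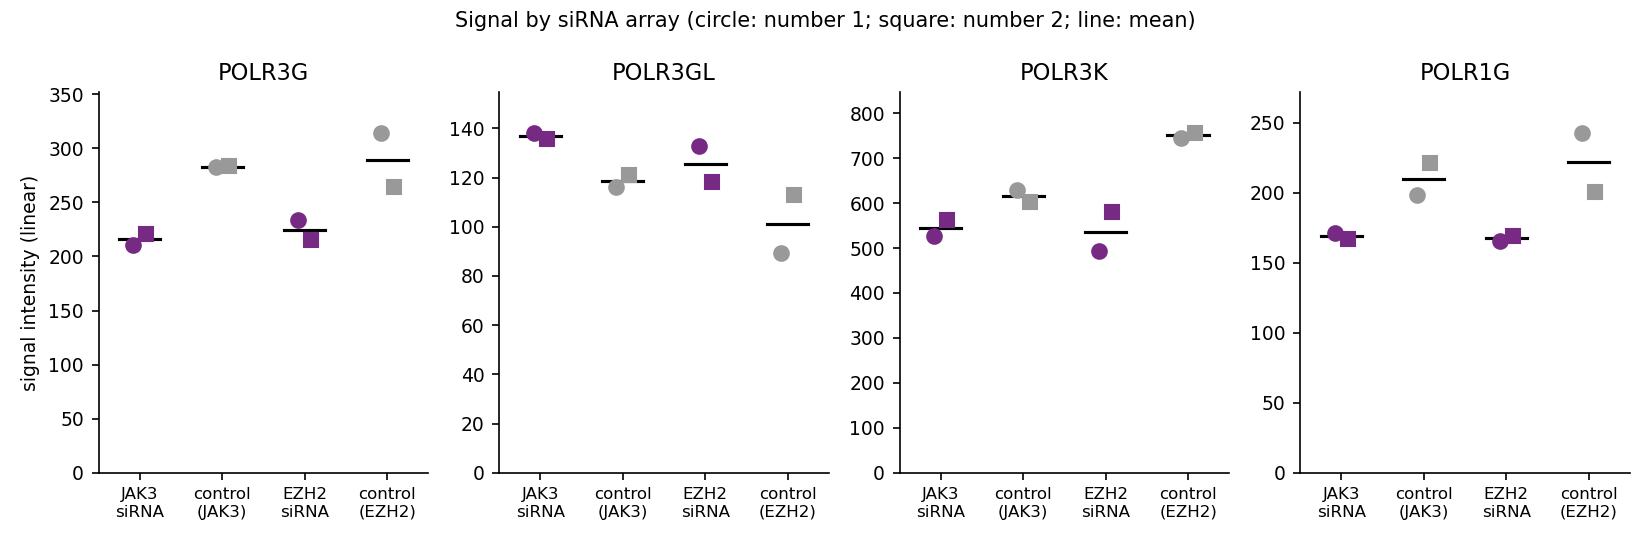
Linear signal of POLR3G, POLR3GL, POLR3K and POLR1G on the 8 siRNA arrays, each siRNA group left of its control, with circles for arrays numbered 1, squares for arrays numbered 2 and lines for the mean of a group. POLR3G lies between 210.5 and 234 on the 4 siRNA arrays and between 264 and 314 on the 4 controls.

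POLR1G had 166 and 169 on the EZH2 siRNA arrays, against 243 and 201 on their controls (log2 change -0.40, SE 0.087, limma adjusted p = 0.0536). POLR1E, its partner, had 217 and 264 on the EZH2 siRNA arrays, against 347 and 300.2 on their controls (log2 change -0.43, SE 0.101, limma adjusted p = 0.0612). Neither passed, although the arrays did not overlap. POLR3GL had 133 and 118 on the EZH2 siRNA arrays, against 89.3 and 113 on their controls (log2 change 0.32, limma adjusted p = 0.148). Its higher value came mostly from pair 1, where the control array was the lowest of the 4.

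The median log2 change after EZH2 siRNA was -0.28 for Pol I with 6 of 6 values below 0, -0.10 for the pair shared by Pol I and Pol III, -0.10 for Pol II with 6 of 7 below 0, -0.18 for the subunits of all 3 enzymes with 5 of 5 below 0, and -0.19 for Pol III with 7 of 9 below 0. The values of the Pol I subunits ran between -0.43 and -0.21, while POLR2A, the largest Pol II subunit, had a value of 0.09. Over all 29 subunits the median was -0.19 with 26 below 0, where all genes tested had a median of 0 and 51.8% below 0. Both EZH2 siRNA arrays lay below both controls for 17 of 29 subunits, where 20.8% of all genes did, and above for 1, POLR3GL, where 16.6% of all genes did. The summed signal of 9 NK cell markers was 10830 to 11260 on the EZH2 siRNA arrays and 7023 to 10330 on their controls, that of 5 monocyte markers was 437 to 461 and 377 to 410.2, and that of 6 T cell markers 584 to 624 and 509 to 547. No marker gene was at 0, 0 of the markers tested were called in this comparison, and their part in the values of the subunits was not tested.

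The EZH2 pairs differed in size. In pair 1 the subunits had a median log2 difference of -0.26 with 27 of 29 below 0, where all genes had -0.03 with 58.1% below 0. In pair 2 the median was -0.07 with 21 of 29 below 0, where all genes had 0.01 with 46.3% below 0. The Pol I subunits had a median of -0.49 in pair 1 and -0.12 in pair 2, and all 6 lay below 0 in each. POLR3K had -0.60 in pair 1 and -0.38 in pair 2, and POLR3G had -0.43 and -0.29. The pairs lay farther apart for POLR1E, with -0.68 and -0.18, and for POLR3GL, with 0.57 and 0.06. Leaving out array 1 of either group left 0 members and 0 genes in all called. Leaving out array 2 of either group left 14 members called, 13 lower and 1 higher, where 1511 genes in all were called. The higher one was POLR3GL (log2 change 0.57, limma adjusted p = 0.00402 to 0.00405). With 1 pair left, the spread came from the other siRNA arrays of the fit.

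**Figure D3:**
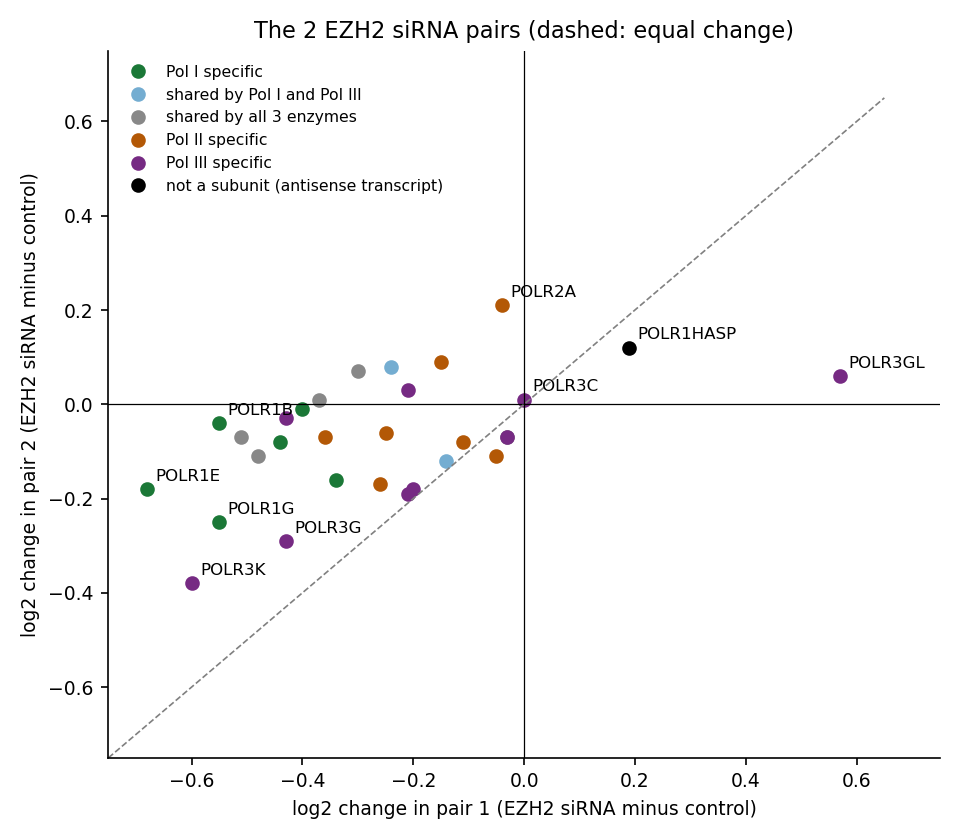
Log2 difference (EZH2 siRNA minus its control) of the 30 genes in pair 1 (x axis) and pair 2 (y axis), 1 point per gene with colours for the class of subunit and a dashed line of equal values. Most points lie left of and above the line: the median of the subunits was -0.26 in pair 1 and -0.07 in pair 2. POLR3K lies lowest and POLR3GL farthest right.

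Bases upstream of the start of 3 of these genes are shown. One is POLR3K, which fell after EZH2 siRNA. The others passed the test in neither arm: POLR3GL, whose value was above 0 in both, and POLR1G, the Pol I subunit with the smallest p in both. POLR3G, called in both arms, had no promoter entry. The sequences are the 250 bases before the RefSeq start on GRCh38.p14, read 5′ to 3′ along the gene's strand. They lie at chr16:53609-53858 on the minus strand for POLR3K, chr1:145964440-145964689 on the plus strand for POLR3GL and chr19:45406394-45406643 on the plus strand for POLR1G. Capitals mark matches on either strand to 3 motifs. One is the CCAAT box, with the letters CCAAT, which reads ATTGG when it lies on the opposite strand. Another is the E2F motif, searched as TTCCCGC, which the POLR3K promoter holds in its reverse complement. The last is the E-box, searched as CACGTG.
POLR3K: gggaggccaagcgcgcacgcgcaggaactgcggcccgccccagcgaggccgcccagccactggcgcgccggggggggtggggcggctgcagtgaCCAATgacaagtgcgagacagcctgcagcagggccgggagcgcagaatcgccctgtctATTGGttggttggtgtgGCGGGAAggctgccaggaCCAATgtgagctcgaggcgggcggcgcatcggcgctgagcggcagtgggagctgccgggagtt
POLR3GL: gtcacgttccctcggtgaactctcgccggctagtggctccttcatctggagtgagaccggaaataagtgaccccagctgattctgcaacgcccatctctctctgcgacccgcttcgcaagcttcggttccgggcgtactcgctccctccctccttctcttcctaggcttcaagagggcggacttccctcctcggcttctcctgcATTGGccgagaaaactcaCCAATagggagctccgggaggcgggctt
POLR1G: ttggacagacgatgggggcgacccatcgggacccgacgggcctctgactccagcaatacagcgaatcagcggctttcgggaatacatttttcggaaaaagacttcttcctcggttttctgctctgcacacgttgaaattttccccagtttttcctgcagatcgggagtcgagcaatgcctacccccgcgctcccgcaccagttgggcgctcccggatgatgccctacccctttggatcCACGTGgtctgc

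A RefSeq promoter was matched to 22 of the 30 genes; POLR1E, POLR1HASP, POLR2G, POLR2I, POLR2J, POLR2K, POLR3D and POLR3G had no entry. Of the 22, 6 held CCAAT on either strand, where 37% of 27305 gene promoters of this length did. TTCCCGC was held by 3 (POLR2A, POLR3C and POLR3K), against 6.66% of all promoters, and CACGTG by 3 (POLR1G, POLR3A and POLR3C), against 7.73%. The CACGTG of POLR1G lies 12 to 7 bases before its start. TTCNNNGAA, the motif of STAT factors that act downstream of JAK kinases, was held by 3 (POLR1B, POLR2B and POLR2C), against 8.09% of all promoters. The shown motifs did not overlap one another. A match is a run of letters and was not tested as a binding site.

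The changes after JAK3 siRNA and after EZH2 siRNA were compared directly, as the difference between them. For 0 of the 30 genes did they differ beyond the spread (3 at an unadjusted limma p under 0.05), where 0.366% of all genes did. POLR3G, which fell in each arm, had a difference of -0.03 (limma adjusted p = 0.984).

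The smallest p-values of this difference belonged to POLR3K, POLR2G and POLR2E. POLR3K had 526 and 563 on the JAK3 siRNA arrays, against 629 and 602 on their controls (log2 change -0.18, limma adjusted p = 0.387), and its difference from the EZH2 arm was 0.31 (SE 0.111, limma adjusted p = 0.417). POLR2G, part of the Pol II stalk, had 301 and 306 on the JAK3 siRNA arrays, against 266 and 272 on their controls, and 299.6 and 286 on the EZH2 siRNA arrays, against 309 and 309 on theirs (difference 0.25, limma adjusted p = 0.486). POLR2E, a subunit of all 3 enzymes, had 842 and 859 on the JAK3 siRNA arrays, against 864 and 854 on their controls, and 642 and 720.4 on the EZH2 siRNA arrays, against 893.5 and 775 on theirs (difference 0.28, limma adjusted p = 0.588). The EZH2 siRNA arrays of POLR2E lay below their controls while those of its JAK3 arm overlapped. The Pol I subunits had a median difference of 0.16 with 6 of 6 above 0, and the Pol III subunits -0.03 with 4 of 9 above 0.

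POLR3G and POLR3GL occupy the same place in Pol III, so their balance was followed within each array, as log2 POLR3G minus log2 POLR3GL. Since the level of a probe set cannot be set against that of another, only shifts of this difference between arrays are read. The difference had lower values after each siRNA than in its controls: POLR3G fell in both arms, and POLR3GL had values above 0 that did not pass.

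The difference was 0.61 and 0.70 on the JAK3 siRNA arrays, against 1.28 and 1.23 on their controls, a shift of -0.60, or 1.51-fold on the ratio. On the EZH2 siRNA arrays it was 0.81 and 0.87, against 1.82 and 1.23 on their paired controls, a shift of -0.68, or 1.60-fold. All 4 siRNA arrays lay below all 4 controls. The exact permutation test, two-sided, gave p = 0.333 in each arm, which is the smallest p that 2 arrays against 2 allow. The shift was -1.00 in EZH2 pair 1 and -0.36 in pair 2. On the plasmid arrays the full-length plasmids had a difference of 0.04 ± 0.25 (SD, n = 6), against 0.38 ± 0.71 on the vector arrays (SD, n = 2), with p = 0.286 in the exact permutation test where 0.0714 was the smallest possible. The vector arrays lay at 0.88 and -0.11, with 3 of the 6 full-length plasmid values between them and 3 below both, and the SET deletion array lay at 0.45.

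**Figure D4:**
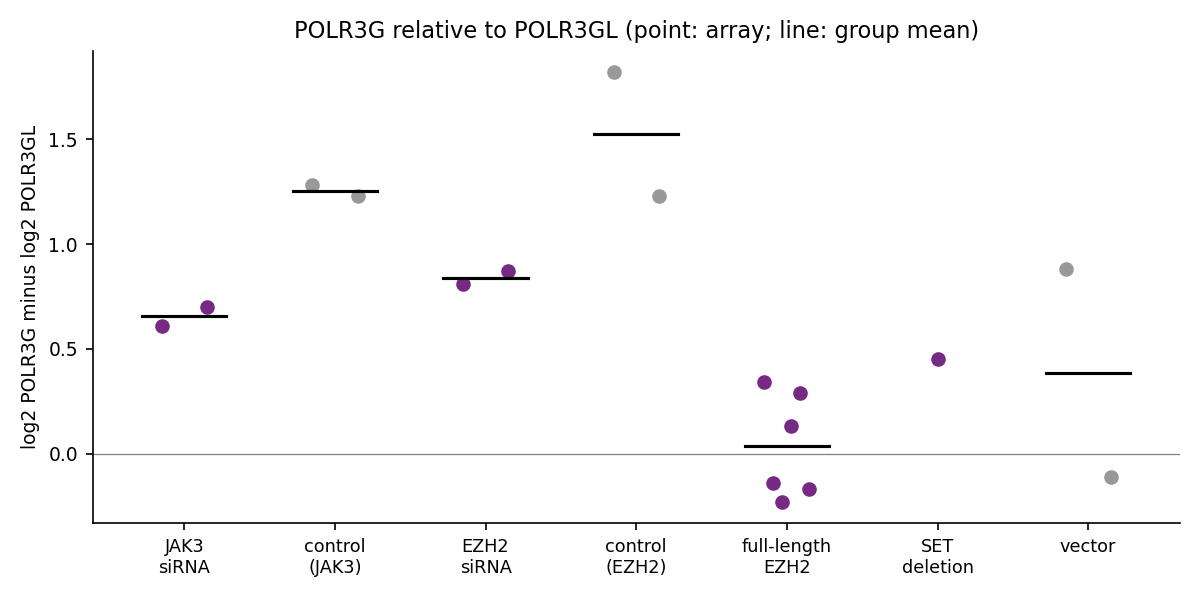
Log2 POLR3G minus log2 POLR3GL on each of the 17 arrays, with points for arrays, lines for group means and each group left of its control. The JAK3 siRNA arrays lie at 0.61 and 0.70 against 1.28 and 1.23, and the EZH2 siRNA arrays at 0.81 and 0.87 against 1.82 and 1.23.

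Genes that work with the polymerases were listed by role. After JAK3 siRNA 0 of 13 Pol I factors, 0 of 33 general factors of Pol II, 0 of 19 Pol III factors and 0 of 20 genes of polymerase assembly and import were called, with medians of -0.17, -0.05, -0.06 and -0.06. GPN3, a GTPase needed for import of assembled Pol II, had a log2 change of -0.27 (limma adjusted p = 0.13), and the topoisomerase TOP1 had -0.28 (limma adjusted p = 0.178). Among 6 tested transcripts of Pol III itself, 6 had values above 0 with a median of 0.19, and 0 were called. Their values ran from 0.07 for the vault RNA VTRNA1-1 to 0.33 for the spliceosomal RNU6ATAC (limma adjusted p = 0.197).

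After EZH2 siRNA 3 of these genes fell. The change of GPN3 was -0.38 on the log2 scale (SE 0.074), that of GTF3A, the factor that recruits Pol III to the 5S ribosomal RNA gene, was -0.35 (SE 0.070), and that of TAF5, a subunit of the Pol II factor TFIID, was -0.39 (SE 0.081). Their limma adjusted p-values were 0.0444, 0.0444 and 0.0473 in this order. They are 1 of 20 assembly genes, 1 of 19 Pol III factors and 1 of 33 general factors of Pol II, and 0 of 13 Pol I factors were called, where 0.94% of all genes were called and 0.567% lower. None of these 3 calls held when dim genes were kept in, or when array 1 of either group was left out, since 0 genes in all were then called. The medians were -0.11 for assembly, -0.09 for Pol III factors, -0.11 for general factors of Pol II and -0.17 for Pol I factors. Of the 6 Pol III transcripts 5 had values below 0 with a median of -0.14, and 0 were called. In the difference between the arms the 6 transcripts all lay above 0 with a median of 0.32, from 0.16 to 0.46, and 0 were called; VTRNA1-3 had 0.46 (SE 0.116, limma adjusted p = 0.168) and the assembly gene TTI1 0.35 (limma adjusted p = 0.241).

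With full-length EZH2 plasmids, no polymerase gene passed the test, and neither did EZH2 itself. For 29 of 29 subunits the values of the full-length plasmid arrays overlapped those of the vector arrays. The vector arrays themselves differed by a median log2 of 0.78 over the subunits, which makes an overlap likely. The share of all genes that overlapped is not given here, so nothing about the subunits is read from this count. In this comparison 0 of 30 members and 0% of all 14410 genes were called by limma (0 members and 10 genes at an unadjusted p under 0.05). The fit had no term for the set, so its SE and p-values include the difference between the sets.

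**Figure D5:**
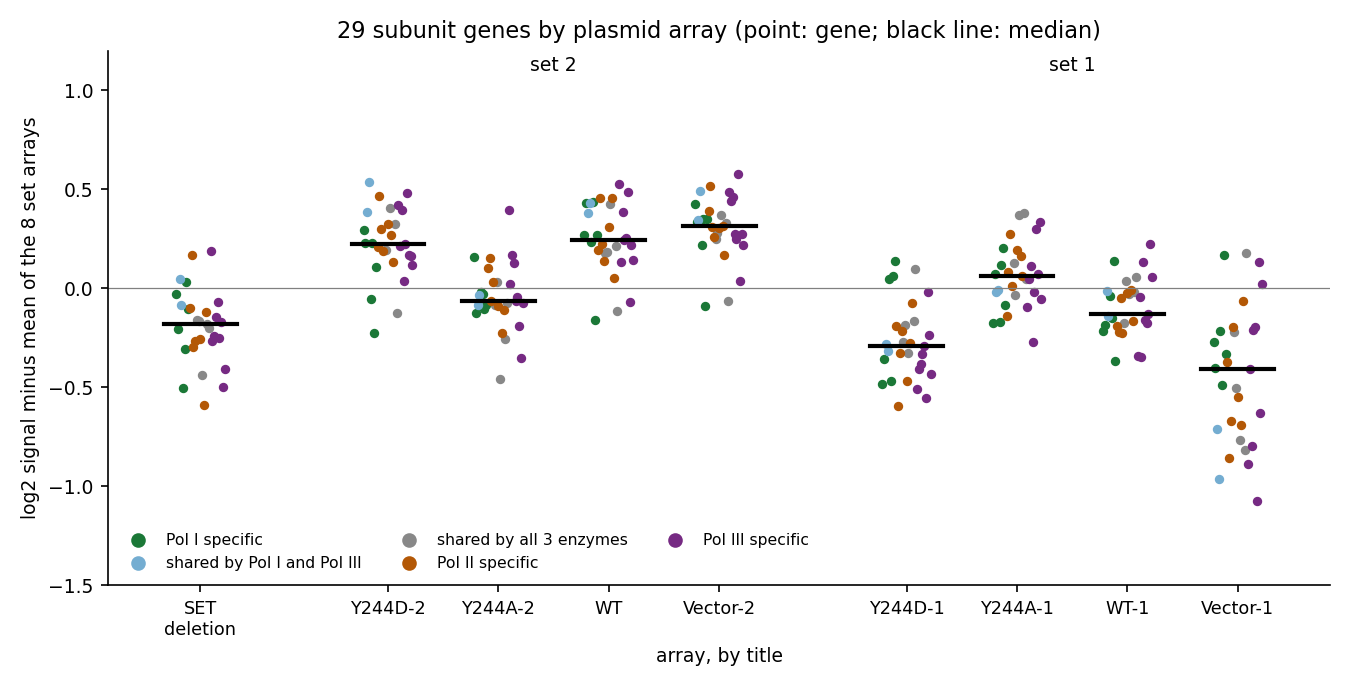
Log2 signal of the 29 subunit genes on each plasmid array, minus the gene's mean over the 8 arrays of sets 2 and 1, with 1 point per gene, colours for the class of subunit and black lines for the median. Arrays are named by title. The median is highest on Vector-2 (0.31) and lowest on Vector-1 (-0.41), and on the SET deletion array it is -0.18.

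The members with the smallest p-values were POLR2K, POLR3K and POLR2C. POLR2K, a small zinc-binding subunit of all 3 enzymes, had 326, 418 and 507 as lowest, median and highest signal on the 6 full-length plasmid arrays, against 221 and 489.6 on the vector arrays (log2 change 0.32, SE 0.286). POLR3K had 216, 292 and 322 on the full-length plasmid arrays, against 296 and 339 on the vector arrays (log2 change -0.16, SE 0.174). POLR2C, which pairs with POLR2J in the assembly platform of Pol II, had 142, 190.0 and 219 on the full-length plasmid arrays, against 112 and 221 on the vector arrays (log2 change 0.24, SE 0.259). The limma adjusted p was 1 for each. For POLR2K and POLR2C, the vector arrays lay farther apart than the whole range of the full-length plasmid arrays. POLR3G had 88.4, 97.7 and 113 on the full-length plasmid arrays, against 110.3 and 103 on the vector arrays, and POLR3GL had 72.4, 106 and 117, against 59.8 and 112.

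The direction differed between the sets. In set 2 the subunits had a median of -0.15 (full-length plasmids minus vector) with 29 of 29 below 0, where all genes had -0.04 with 58.9% below 0. In set 1 they had a median of 0.27 with 5 of 29 below 0, where all genes had 0.04 with 45% below 0. The difference of the effect between the sets, tested as an interaction after these values had been seen, called 0 of 30 members and 0 of 14410 genes by limma (1762 genes at an unadjusted p under 0.05). The members at an unadjusted limma p under 0.05 were POLR1C, POLR1D, POLR2B, POLR2C, POLR2F, POLR2K, POLR3A, POLR3C, POLR3F and POLR3GL. Each set has 1 vector array. The median of all subunits over both sets was 0.05; it was -0.27 without Vector Control-1 and 0.42 without Vector Control-2. Of the genes that work with the polymerases 0 were called, and the smallest p-values were those of RUVBL2, an ATPase of an assembly chaperone (log2 change 0.27), and GTF2E2, a subunit of TFIIE (0.32), both with a limma adjusted p of 1.

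Between the plasmid sets, 26 of 29 polymerase subunits had values above 0, that is, higher signals in set 2. Of 30 members, 13 were higher and 1 lower in set 2 by limma, where 34.5% of all genes were called, 21.8% higher and 12.7% lower. The largest change was that of POLR3A, the largest subunit of Pol III, which was 1.89-fold higher. POLR1G was the single member that was lower, and POLR3G and POLR3GL were not called. The count of members called was 4 without either vector array, 5 without Y244D-2 or the array titled EZH2 WT, 6 without Y244D-1, 8 without WT-1 and 23 without Y244A-2. Values below are given in the order Y244D, Y244A, WT and vector of each set, by title.

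Among Pol III subunits, POLR3A had 238, 234, 256 and 248 in set 2, against 125, 166, 139.95 and 95.9 in set 1. POLR3C, the anchor of the module that holds POLR3G or POLR3GL, had 522, 445, 519 and 547 in set 2, against 304, 429.6, 311 and 228 in set 1. Every set 2 array lay above every set 1 array for POLR3A and POLR3C. POLR3F, the winged-helix subunit of the same module, had 181, 126, 182 and 194 in set 2, against 88.45, 159.85, 115 and 61.8 in set 1. POLR3E, which pairs with POLR3D in a heterodimer for initiation and termination, had 171, 140.15, 175 and 174 in set 2, against 119.6, 145, 131 and 128 in set 1. For POLR3F and POLR3E the sets overlapped, since Y244A-2 lay below Y244A-1. The log2 changes were 0.92 (SE 0.139, limma adjusted p = 0.00212) for POLR3A, 0.71 for POLR3C, 0.75 for POLR3F and 0.33 for POLR3E, and the last 3 had limma adjusted p-values of 0.0119, 0.0388 and 0.0465. POLR3G had 113, 88.4, 95.9 and 103 in set 2, against 99.4, 106, 92.1 and 110.3 in set 1 (log2 change -0.03). POLR3GL had 103, 72.4, 108 and 112 in set 2, against 78.5, 117, 108 and 59.8 in set 1. Neither gene separated the sets, and log2 POLR3G minus log2 POLR3GL was 0.03 ± 0.21 in set 2, against 0.21 ± 0.51 in set 1 (SD, n = 4 each, exact permutation p = 0.6, smallest possible 0.0286).

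Among Pol I subunits, POLR1A, the largest, had 226, 206, 222 and 248 in set 2, against 132, 164, 159 and 153 in set 1. POLR1B, the other large subunit, had 129.6, 101, 149 and 139 in set 2, against 86.3, 116, 97.3 and 83.5 in set 1. POLR1F, the stalk subunit that meets the initiation factor RRN3, had 135, 113, 156 and 146 in set 2, against 83.2, 125, 104 and 81.8 in set 1. The sets were apart for POLR1A and overlapped for POLR1B and POLR1F. POLR1G had 92.05, 100.0, 96.25 and 101 in set 2, against 112, 124, 118 and 121 in set 1, so that every set 2 array lay below every set 1 array. The log2 changes were 0.57, 0.44, 0.49 and -0.29 in this order of genes, with limma adjusted p-values of 0.00537, 0.0472, 0.0367 and 0.0395. Of the subunits shared by Pol I and Pol III, POLR1C had 157, 113, 156 and 152 in set 2, against 98.7, 118, 119 and 73.3 in set 1 (log2 change 0.51). POLR1D had 262, 177, 243 and 254 in set 2, against 145, 180.0, 164 and 92.7 in set 1 (log2 change 0.71). Both were called and both overlapped between the sets.

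Among Pol II subunits, POLR2A had 503, 467, 497 and 571 in set 2, against 382, 396, 382 and 337 in set 1 (log2 change 0.44). After quantile normalization POLR2A had 0.14 (limma adjusted p = 0.224) and was not called. POLR2B, the other large subunit, had 593, 478, 589 and 614 in set 2, against 285, 454, 369 and 237 in set 1 (log2 change 0.80). POLR2D, which forms the stalk with POLR2G, had 149, 134, 144 and 157 in set 2, against 113, 132, 112 and 114 in set 1 (log2 change 0.31). All set 2 arrays lay above all set 1 arrays for each of these 3 genes. Of the 5 subunits of all 3 enzymes 0 were called, with a median of 0.31, which was 0.02 after quantile normalization. POLR1HASP, the antisense transcript, had 49.9, 53.1, 61.3 and 56.4 in set 2, against 35.65, 40.2, 40.5 and 37.4 in set 1 (log2 change 0.52). It was measured near the lower end of the signals, with 42.34 to 49.98 on the siRNA arrays. It overlaps POLR1H, and the sources used here do not say whether the labelled cDNA keeps the strand. POLR1H had 84.1, 73.6, 94.2 and 99.8 in set 2, against 86.2, 73.75, 60.6 and 62.2 in set 1 and was not called.

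Over the 29 subunits, 26 values lay above 0 with a median of 0.37, where all genes had -0.02 and 51.4% below 0. The arrays did not overlap for 6 subunits that were higher and 2 that were lower (POLR1G and POLR2L) in set 2, where 16.3% and 14.9% of all genes were apart in these directions. The spread of the arrays moved with this result. The interquartile range of log2 signal was 1.986 to 2.183 in set 2, against 1.79 to 2.034 in set 1, and the median log2 signal of the subunits was 7.787 on the vector array of set 2, against 6.895 on that of set 1. After quantile normalization, which makes these ranges equal, the median of the subunits was 0.22. The vector arrays alone differed by a median of 0.78 over the subunits, with 26 of 29 higher in set 2. The calls of POLR1B, POLR2A, POLR2D, POLR3E and POLR3F did not hold after quantile normalization, and those of POLR1B, POLR1C, POLR1F, POLR1G and POLR3F did not hold with arrays centred on their medians. Without the filter on dim genes POLR1B, POLR1C, POLR1F and POLR3F were not called. The part of the spread of the arrays in the change was not tested.

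Other genes of transcription were called higher in set 2 as well. These were 7 of 13 Pol I factors, 12 of 33 general factors of Pol II, 8 of 19 Pol III factors and 5 of 20 assembly genes, while 1 Pol III factor and 1 assembly gene were lower, where 21.8% of all genes were called higher and 12.7% lower. The smallest p-values were those of TAF1 (log2 change 0.88), the largest subunit of TFIID, BAZ2A (0.82), which silences ribosomal RNA genes, BDP1 (0.87), a subunit of the Pol III factor TFIIIB, and TAF2 (1.05), also of TFIID, with limma adjusted p-values between 0.00109 and 0.00312. Markers moved between the sets too. The summed signal of the 9 NK cell markers was 4312 to 4773 in set 2, against 4995 to 6483 in set 1, with GZMB lower and KLRC1 higher, and that of the 6 markers of epithelial cells and fibroblasts was 481 to 657, against 573 to 900.4. CD5 of 3 T cell markers tested, CD14 and CD68 of 4 monocyte markers and KRT8 of 4 epithelial and fibroblast markers were lower in set 2, no marker was at 0, and their part in the values of the subunits was not tested.

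The single SET deletion array was set beside the 2 vector arrays with no test, since it has no replicate and no set number. EZH2 had a signal of 1471 on it. The subunits had a median log2 difference of 0.20 from Vector Control-1 with 22 of 29 above 0, where all genes had -0.04 with 54.1% below 0. From Vector Control-2 the median was -0.51 with 28 of 29 below 0, where all genes had -0.14 with 57.8% below 0. POLR3K had 219.7, against 296 and 339 on the vector arrays, and POLR3G had 89.6, against 110.3 and 103. Both lay below both vector arrays, as did POLR1E, POLR2D, POLR2J and POLR2L, while POLR3GL, with 65.5 against 59.8 and 112, lay between them. The direction of most subunits thus turned with the vector array it was set against. The share of all genes that lay below both vector arrays is not given here. The low values of POLR3K, POLR3G and the other subunits named with them are therefore not read as particular to these genes.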

How the data were processed

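Total RNA of transfected NKYS cells was copied to biotinylated cDNA and put on 17 arrays, per the labels' protocols. The deposited values are linear intensity, with 28869 probe sets per array; the authors' background correction, normalization and summarisation are not given in the sources used here. In the platform annotation 19310 probe sets have 1 symbol, 1752 several and 7807 none; RefSeq (GRCh38.p14) changed 0 symbols. Groups came from titles and transfection fields.

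Genes whose mean log2 intensity did not reach the 30th percentile were not tested; all 30 members passed in every comparison. Changes were tested with limma 3.58.1 in R 4.3.3 (lmFit and eBayes, two-sided, Benjamini-Hochberg over all genes tested, threshold 0.05). The 8 siRNA arrays formed a single fit with the EZH2 pairs as a block, since their titles name the pairs (deviations from group means correlated within pairs with r = -0.086 across genes), and the 8 arrays with a vector or full-length plasmid another. The comparison of the sets had the plasmid as a term. The main test of full-length plasmids against vector had no term for the set, so its spread includes the difference between the sets. POLR3G minus POLR3GL was tested by exact permutation in Python 3.11.15 with SciPy 1.17.1. The fits were tested on simulated data. The members and gene lists were chosen with earlier results of these data known.

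Every member is accounted for. Values per array are given for POLR3G and POLR3GL, for members called in a comparison and, where under 3 were called, for the 3 with the smallest unadjusted p. POLR1E, POLR1H, POLR2A in the EZH2 arm, POLR2G in the JAK3 arm and POLR2L were named after their values were seen. Other listed genes are the up to 4 called ones with the smallest p, or the 2 with the smallest p where none was called. VTRNA1-1, RNU6ATAC and called markers were named after their values were seen. Alternatives were quantile normalization, centring on the array median, no filter or the 50th percentile, averaging probe sets per gene, trend and robust eBayes, only the arrays compared, blocks added or removed, and each array left out.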

Additional observations from a re-analysis of the deposited data

How the results depend on the processing

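Of the 30 members, 1 was called after JAK3 siRNA, 2 after EZH2 siRNA, 0 in the difference between the siRNAs, 0 with full-length plasmids and 14 between the sets. After JAK3 siRNA 2 were called with only the 4 arrays compared, 0 with the replicate block, and 0 with any array left out. After EZH2 siRNA 1 was called after quantile normalization, 4 with arrays centred on their medians, 0 with no filter, 4 with trend and robust eBayes, 0 with no replicate block, and 0 to 14 with an array left out. In the difference between the siRNAs 0 to 1 were called with an array left out and 0 with the replicate block. Between the sets 4 to 23 were called with an array left out (4 without either vector array and 23 without the array titled Y244A-2) and 10 to 17 otherwise. With full-length plasmids 0 were called in every alternative run, the set number as a replicate block included. Over all genes, 200 were called after JAK3 siRNA (33 to 523 over the alternatives) and 136 after EZH2 siRNA (0 to 1511). The deviations of same-numbered JAK3 arrays correlated with r = 0.151 across genes. The difference of set 2 from set 1 on the full-length plasmid arrays correlated across genes with that on the vector arrays (r = 0.842).

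With an array left out, some values that had not passed a test changed sign. The shift of log2 POLR3G minus log2 POLR3GL ran from -0.85 to 0.15 with full-length plasmids and from -0.33 to 0.04 between the sets, and stayed below 0 from -0.65 to -0.55 with JAK3 siRNA and from -0.98 to -0.39 with EZH2 siRNA. In the difference between the siRNAs POLR3G ran from -0.10 to 0.04 (0.01 without JAK3 siRNA array 1) and POLR3GL from -0.37 to 0.14. With full-length plasmids POLR3GL ran from -0.22 to 0.69. Between the sets POLR3G ran from -0.10 to 0.02 (0.00 without the array titled Y244A-1) and POLR3GL from -0.10 to 0.33. There, POLR3K had -0.09 after quantile normalization and POLR3G 0.07 with arrays centred. The causes were not tested. With 2 arrays a group, a member's change that missed the threshold is not shown to be absent.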
